A study of Mus musculus with 12 samples.

Results

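The genes described here are 45 type I interferon response genes, read across 4 groups of bone marrow samples from C57BL/6 mice. They were chosen as a fixed list of gene symbols. All 45 had an entry among the 24421 of the deposited expression table, and all 45 were among the 11767 genes kept because they reached 1 FPKM in at least 3 of the 12 samples. FPKM counts fragments per kilobase of gene and corrects a level for gene length and for the depth of the library. Traumatic brain injury is abbreviated TBI. The groups were Young-TBI (injured young mice), Young-CON (young controls), Aged-TBI (injured aged mice) and Aged-CON (aged controls), with 3 samples each. All groups were of the same strain, and marrow of the injured mice was taken 3 days after the injury. The labels do not give the ages, the sex, the kind of injury, what the controls underwent, or whether a sample is 1 animal or a pool. As they also do not say that the samples of a group are separate animals, the p-values below describe the spread among these samples only. Whole marrow was lysed, so fewer cells of a type and less RNA per cell cannot be told apart in any value below. The study compared injury with control at each age and aged with young mice, in connection with the making of myeloid cells in marrow.

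Type I interferons are secreted proteins that cells make when sensors find foreign nucleic acid. They bind a receptor of the subunits Ifnar1 and Ifnar2, whose kinases Jak1 and Tyk2 activate transcription factors, Stat2 among them. Stat2 acts with Irf9 in a complex that binds interferon-stimulated response elements in the promoters of target genes. Many target genes encode sensors, transcription factors and antiviral enzymes of the same pathway, so that the response feeds itself. In marrow, a low level of these transcripts is normally present, and a strong or long interferon signal is known to push blood stem cells into division.

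The members were chosen by function, and the short sequences below show sequence features of the pathway that some of their promoters hold. RefSeq promoter windows (GRCm38.p6), running from 250 bases before to 50 after a gene's start, were found for 35 of the 45. The 10 without an entry were Mx1, Mx2, Oas2, Dhx58, Usp18, Rtp4, Zbp1, Ifi27l2a, Parp14 and Parp9. The core of the response element, searched on both strands as GAAA, any 2 bases and GAAA, occurred in 18 of the 35 members (51.4%), against 349 of 8857 tested genes with a window (3.94%) and 1131 of all 32851 windows (3.44%). The core of the gamma-activated site, another element of interferon-induced promoters, was searched as TTC, any 3 bases and GAA. It occurred in 8 of the 35 members (22.9%) and in 8.43% of the tested genes, and the same bases can belong to both cores where they overlap. In 14 members the response element core lay wholly upstream of the start. Each stretch below is read 5′ to 3′ on the gene's own strand, with the core in capitals.
Cxcl10 (chr5:92349073-92349122, minus strand): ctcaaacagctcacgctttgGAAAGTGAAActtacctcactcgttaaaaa
Ifit3 (chr19:34583353-34583436, plus strand): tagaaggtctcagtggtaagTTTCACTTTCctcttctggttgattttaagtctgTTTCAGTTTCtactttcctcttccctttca
Stat2 (chr10:128270256-128270305, plus strand): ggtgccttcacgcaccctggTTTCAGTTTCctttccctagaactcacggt
Trim30a (chr7:104465200-104465249, minus strand): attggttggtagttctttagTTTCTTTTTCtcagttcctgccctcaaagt
Isg15 (chr4:156200855-156200916, minus strand): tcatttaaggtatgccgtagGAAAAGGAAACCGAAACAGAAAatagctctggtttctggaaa
Rsad2 (chr12:26456543-26456592, minus strand): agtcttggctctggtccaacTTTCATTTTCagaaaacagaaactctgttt
Irf1 (chr11:53769904-53769952, plus strand): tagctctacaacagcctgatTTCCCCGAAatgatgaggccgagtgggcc
Cxcl10, Ifit3, Stat2 and Trim30a were lower in Aged-TBI than in Young-TBI marrow, and Irf1, shown with its gamma-activated core, was lower in Aged-TBI than in Aged-CON marrow. Isg15 and Rsad2 carry the response element core and did not pass the test in any comparison. Members with and without the core had overlapping ranges of change: in the aged injury comparison the median log2 change was -0.76 over the 18 with the core, -0.54 over the 17 without it and -0.77 over the 10 with no window. These medians are descriptions, and a core says nothing of what binds there.

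Of the 4 groups, Aged-TBI marrow had the lowest levels of nearly all members. The mean of the 45 log2(FPKM + 1) values was 3.73, 4.23 and 4.12 in the Aged-TBI samples, against 4.78, 5.27 and 4.28 in the Aged-CON samples. It was 4.65, 4.51 and 4.84 in Young-TBI samples, against 5.13, 4.75 and 4.68 in Young-CON samples. The group mean was lowest in Aged-TBI for 42 members, and in Young-TBI for the other 3 (Isg20, Rsad2 and Isg15). The highest group mean was in Young-CON for 23 members, in Aged-CON for 13, in Young-TBI for 7 and in Aged-TBI for 2. The Aged-TBI 1 sample held the lowest of all 12 values for 40 members, and the Aged-CON 2 sample the highest for 29. The matching shares over all genes were not counted for these groups and samples. Low values in Aged-TBI were also common over all genes: with no overlap, 26.6% lay below Young-TBI and 13% below Aged-CON. Summed over the members, the level was 1596 ± 235 FPKM in Aged-TBI and 2454 ± 793 FPKM in Aged-CON marrow, and 2050 ± 222 FPKM in Young-TBI and 2423 ± 511 FPKM in Young-CON marrow (SD, n = 3 each). That sum was 0.277% to 0.646% of all FPKM in a sample.

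**Figure D1:**
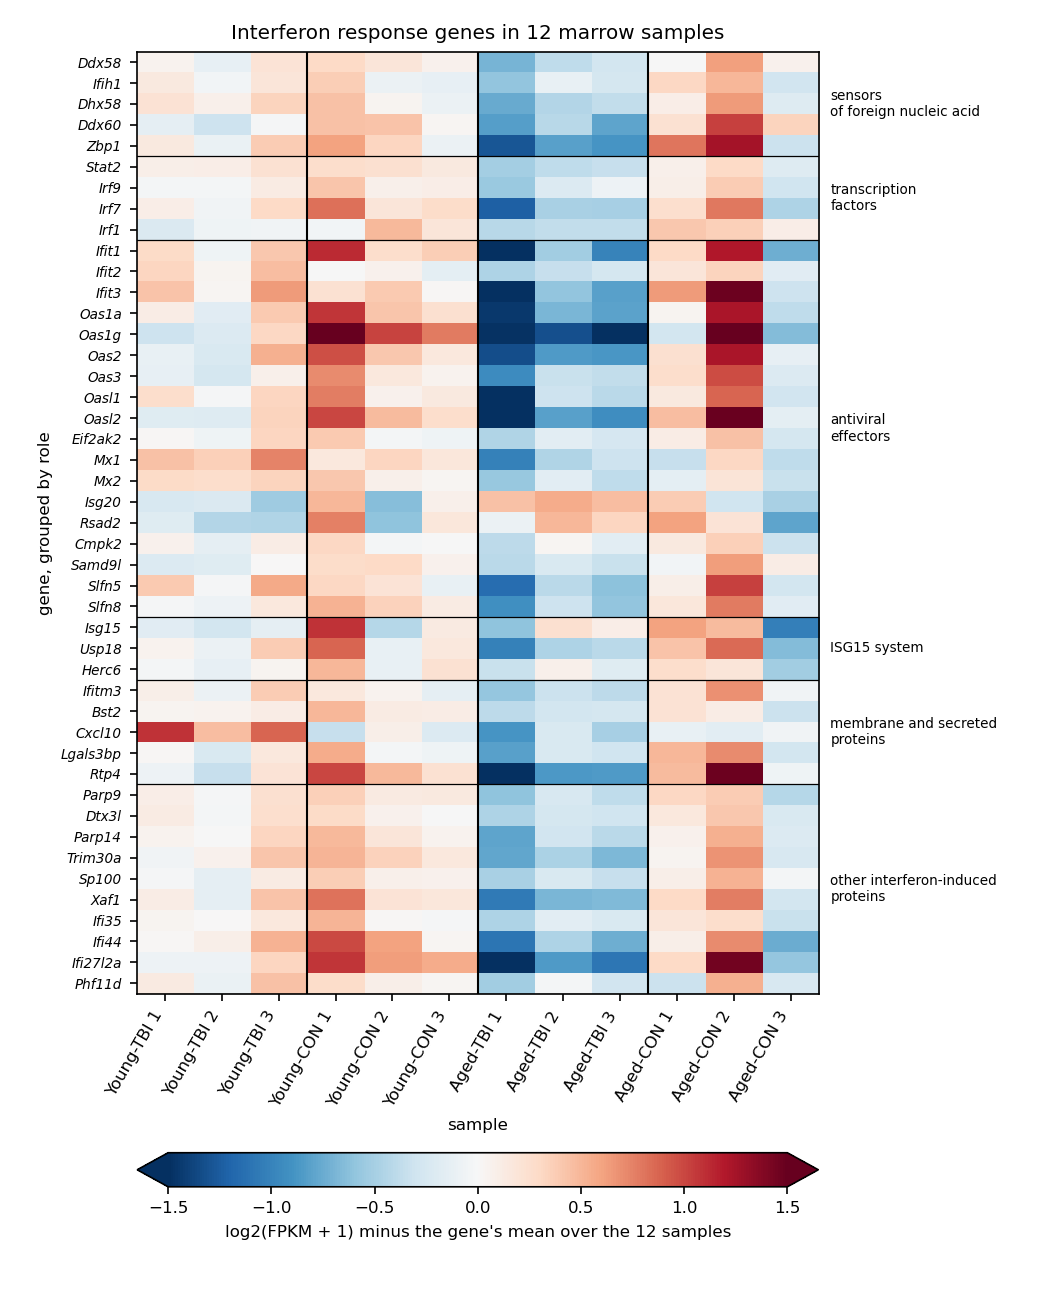
Levels of the 45 genes (rows, grouped by role) in the 12 samples (columns), as log2(FPKM + 1) minus the gene's own mean over the samples, red for above and blue for below that mean. The Aged-TBI columns are blue for nearly all genes, Isg20, Rsad2 and Isg15 being red in at least 2 of the 3, and the Aged-CON 2 column is red for 43 of the 45.

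The aged controls differed among themselves more than the samples of any other group. Aged-CON 2 was above Aged-CON 3 for 44 of the 45 members, all but Cxcl10, by a median of 0.81 on the log2(FPKM + 1) scale. Over all tested genes the median of that difference was -0.03, and 1.07% of them reached 0.81. The ratio of Aged-CON 2 to Aged-CON 3 was 8.18 for Oas1g, 4.92 for Ifi44, 4.3 for Ifit1 and 3.7 for Ifit3, but 1.43 for Stat2 and 1.21 for Irf1. The median SD of a member within a group was 0.456 in Aged-CON, 0.245 in Aged-TBI, 0.179 in Young-TBI and 0.265 in Young-CON on the log2 scale, against 0.150, 0.088, 0.099 and 0.112 for all genes. The members thus varied among samples of one group more than a typical gene did, in every group. The markers of plasmacytoid dendritic cells, which are known as strong interferon producers, were lowest in Aged-CON 2, where their mean log2 level was 1.93 against 2.71 in Aged-CON 1 and 2.58 in Aged-CON 3. Siglech, a receptor of those cells, had 7.43 FPKM in Aged-CON 2, against 17.3 and 18.7 FPKM in the other aged controls. The markers of mature neutrophils were at 8.76 in Aged-CON 2 and 8.74 in Aged-CON 3, against 8.19 in Aged-CON 1. In this list the aged controls with the highest and the lowest mean of the members thus had like values. Other lists differed between those 2 samples. Monocyte markers were at 5.83 in Aged-CON 2, the highest of all 12 samples, against 5.63 in Aged-CON 3. Aged-CON 1, with the middle mean of the members, was lower still at 5.45. Megakaryocyte and platelet markers were at 3.03 in Aged-CON 2, 3.23 in Aged-CON 1 and 4.3 in Aged-CON 3. The part of these cells in the spread of the members was not tested.

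**Figure D2:**
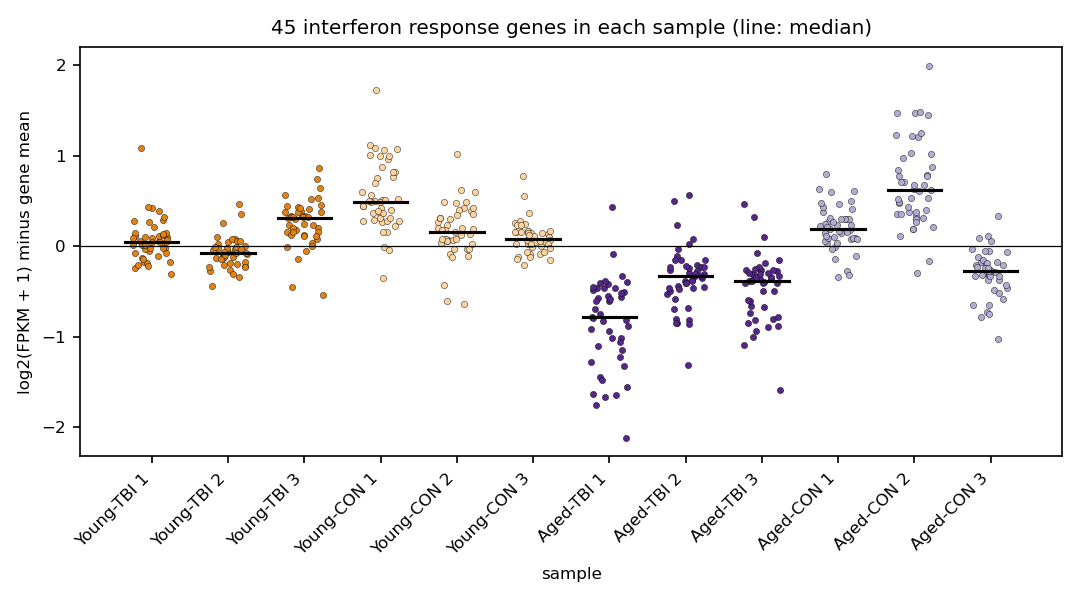
Each point is 1 of the 45 genes in 1 sample, as log2(FPKM + 1) minus the gene's mean over the 12 samples, and the line is the median over the genes. The medians of the Aged-TBI samples were -0.78, -0.33 and -0.38, while those of the Aged-CON samples were 0.19, 0.62 and -0.28.

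In aged mice, injured marrow had lower levels of most members, although only 2 passed the test. Ddx60, a helicase that works with the sensors of viral RNA, and Irf1, a transcription factor of the interferon pathways, fell with injury. The median log2 change over the 45 members was -0.67, against -0.02 over all genes, and 43 of the 45 were negative. By limma with Benjamini-Hochberg adjustment over all 11767 genes, 2 members fell and 0 rose, where 0.263% of all genes fell and 0.0595% rose at the same threshold (adjusted p under 0.05). At p under 0.05 before adjustment, 35 members were lower and 1 was higher, against 13.1% and 10.8% of all genes. All 3 Aged-TBI samples lay below all 3 Aged-CON samples for 27 members, where 13% of all genes did so, and above them for 1 member (Isg20), where 9.19% of all genes did so. The number of members that fell was 21 without Aged-CON 1, where 12.9% of all genes fell, and 15 without Aged-CON 3, where 0.697% of all genes fell. It was 0 without Aged-CON 2, Aged-TBI 1, Aged-TBI 3 or Young-TBI 2, and 1 without Aged-TBI 2, Young-TBI 1, Young-TBI 3 or Young-CON 3. In those fits between 0.0765% and 0.238% of all genes fell. The median change stayed between -0.48 and -0.79 over these left-out samples.

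Ddx60 (chromosome 8, 61928087 to 62038244, GENCODE M21 on GRCm38) had 5.30, 7.42 and 5.5 FPKM in Aged-TBI samples, against 12.2, 21.7 and 13.2 FPKM in Aged-CON samples. The groups did not overlap, and the log2 change was -1.21 (SE 0.20, adjusted p = 0.0308, limma). In young mice it had 9.17, 8.04 and 10.1 FPKM with injury and 14.2, 14.1 and 10.4 FPKM without, a log2 change of -0.45 with an adjusted p of 0.225. Again the groups did not overlap, but the highest injured and the lowest control value were close. Irf1 (chromosome 11, 53770014 to 53778374) had 21.6, 22.4 and 22.4 FPKM in Aged-TBI samples, against 39.1, 37.8 and 31.3 FPKM in Aged-CON samples. Its log2 change was -0.67 (SE 0.12, adjusted p = 0.0449, limma), and its 3 injured values were nearly equal. In Young-TBI samples Irf1 had 25.1, 27.9 and 28.1 FPKM, against 28.4, 41.4 and 33.4 FPKM in Young-CON samples, with a log2 change of -0.32 and an adjusted p of 0.162. Leaving out Aged-TBI 1, Aged-TBI 3, Aged-CON 2 or Young-TBI 2 in turn lifted the adjusted p of Ddx60 to between 0.0524 and 0.156, and Irf1 kept its call in 4 of the 12 such fits, those without Aged-CON 1, Aged-CON 3, Young-CON 1 or Young-CON 2, with an adjusted p of up to 0.23 without Aged-CON 2.

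By role, the sensors of foreign nucleic acid went one way in aged mice. All 5 were lower at p under 0.05 before adjustment, with log2 changes between -1.57 and -0.49. Zbp1, a sensor of left-handed nucleic acid that can start cell death, had 5.76, 8.40 and 7.89 FPKM in Aged-TBI samples, against 27.7, 38.2 and 12.2 FPKM in Aged-CON samples. Its log2 change was -1.57 (SE 0.33, adjusted p = 0.0795). Dhx58 (LGP2), a regulator of the RIG-I-like sensors, had 10.6, 13.4 and 14.1 FPKM with injury against 19.9, 29.3 and 16.1 FPKM in the aged controls, without overlap. The sensors Ddx58 (RIG-I) and Ifih1 (MDA5) had log2 changes of -0.67 and -0.49.

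Among the 4 transcription factors, 3 were lower at p under 0.05 before adjustment in aged mice, Irf9 being the exception at a log2 change of -0.33. Stat2 had 15.7, 17.2 and 17.7 FPKM in Aged-TBI samples, against 24.1, 28.2 and 19.7 FPKM in Aged-CON samples. The groups did not overlap, and the log2 change was -0.47 (SE 0.11, adjusted p = 0.096). Irf7, which drives the later wave of interferon production, had a log2 change of -0.93. Fragments of Irf7 may include those of Phrf1, which overlaps it on the opposite strand, and those of Irf9 may include Rnf31, which overlaps it on the same strand.

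The 18 antiviral effectors held the most negative change of a single member and the most negative median of the 6 roles. In aged mice 13 were lower and 1 higher at p under 0.05 before adjustment, with a median log2 change of -0.88, and none passed the adjusted threshold. Oas1g, of the family of antiviral enzymes that double-stranded RNA activates, had 1.15, 1.40 and 0.981 FPKM in Aged-TBI samples, against 3.95, 22.9 and 2.80 FPKM in Aged-CON samples. The 22.9 FPKM of Aged-CON 2 set most of the difference in means, and the log2 change of -1.82 had an SE of 0.53 (adjusted p = 0.114). Oasl2, a related protein, had 11.6, 23.0 and 21.1 FPKM in Aged-TBI samples, against 57.3, 117 and 37.2 FPKM in Aged-CON samples, a log2 change of -1.77 (SE 0.37, adjusted p = 0.0827). Here the lowest control lay clear of the highest injured sample. Ifit3, of the family that binds foreign RNA, had 1.97, 7.57 and 6.30 FPKM with injury and 19.0, 34.7 and 9.38 FPKM in aged controls, a log2 change of -1.77 (SE 0.43, adjusted p = 0.0999). Samd9l, known as a brake on protein synthesis and cell growth, had 44.6, 50.7 and 46.9 FPKM with injury and 57.9, 91.8 and 64.3 FPKM in aged controls, without overlap. Near-identical copies exist for several members (the effectors Oas1a and Oas1g, the Ifit genes and Slfn8, and Trim30a and Phf11d of other roles), so that fragments may have been split between paralogs. Neighbouring genes account for part of the list: 6 Oas and Oasl genes lie on chromosome 5 and 3 Ifit genes on chromosome 19.

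Membrane and secreted proteins went the same way in aged mice, with all 5 lower at p under 0.05 before adjustment. Rtp4, a chaperone of membrane receptors, had 8.63, 15.9 and 16.1 FPKM in Aged-TBI samples, against 41.7, 83.8 and 28.3 FPKM in Aged-CON samples, a log2 change of -1.75 (SE 0.35, adjusted p = 0.0784). Ifitm3, which blocks the entry of viruses and had the highest mean level of all members, had 309, 368 and 350 FPKM in Aged-TBI samples, against 537, 739 and 444 FPKM in Aged-CON samples. These groups did not overlap either (log2 change -0.72, SE 0.17, adjusted p = 0.0978). Bst2 (tetherin), which holds budding virus at the cell surface, had 64.4, 69.7 and 70.2 FPKM with injury and 98.1, 91.7 and 67.3 FPKM in aged controls, so that 1 control lay within the injured range.

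Of the 10 other interferon-induced proteins, 8 were lower in aged injured marrow at p under 0.05 before adjustment. Sp100, a nuclear body protein, had 96.1, 115 and 106 FPKM in Aged-TBI samples, against 143, 195 and 132 FPKM in Aged-CON samples. Xaf1, which promotes cell death, had 3.43, 4.70 and 4.81 FPKM with injury and 10.4, 14.7 and 6.63 FPKM in aged controls, and Ifi44 had 0.408, 1.18 and 0.810 FPKM with injury and 2.22, 3.93 and 0.80 FPKM in aged controls. Neither passed the adjusted threshold, and Ifi44 values overlapped. Parp9 and Dtx3l, partners in ubiquitin transfer, overlap on opposite strands, and their fragments cannot be told apart if counting ignored strand.

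The ISG15 system, whose members attach and remove the ubiquitin-like protein Isg15, had the median log2 change nearest to 0 of the 6 roles in aged mice, at -0.13. Isg15 itself had 110, 198 and 181 FPKM in Aged-TBI samples, against 257, 235 and 82.2 FPKM in Aged-CON samples. The 2 groups overlapped, and the log2 change was -0.11 with a 95% interval from -1.06 to 0.84. Usp18, the protease that removes Isg15 and restrains the receptor, had a log2 change of -0.83, and Herc6, the ligase, one of -0.13.

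**Figure D3:**
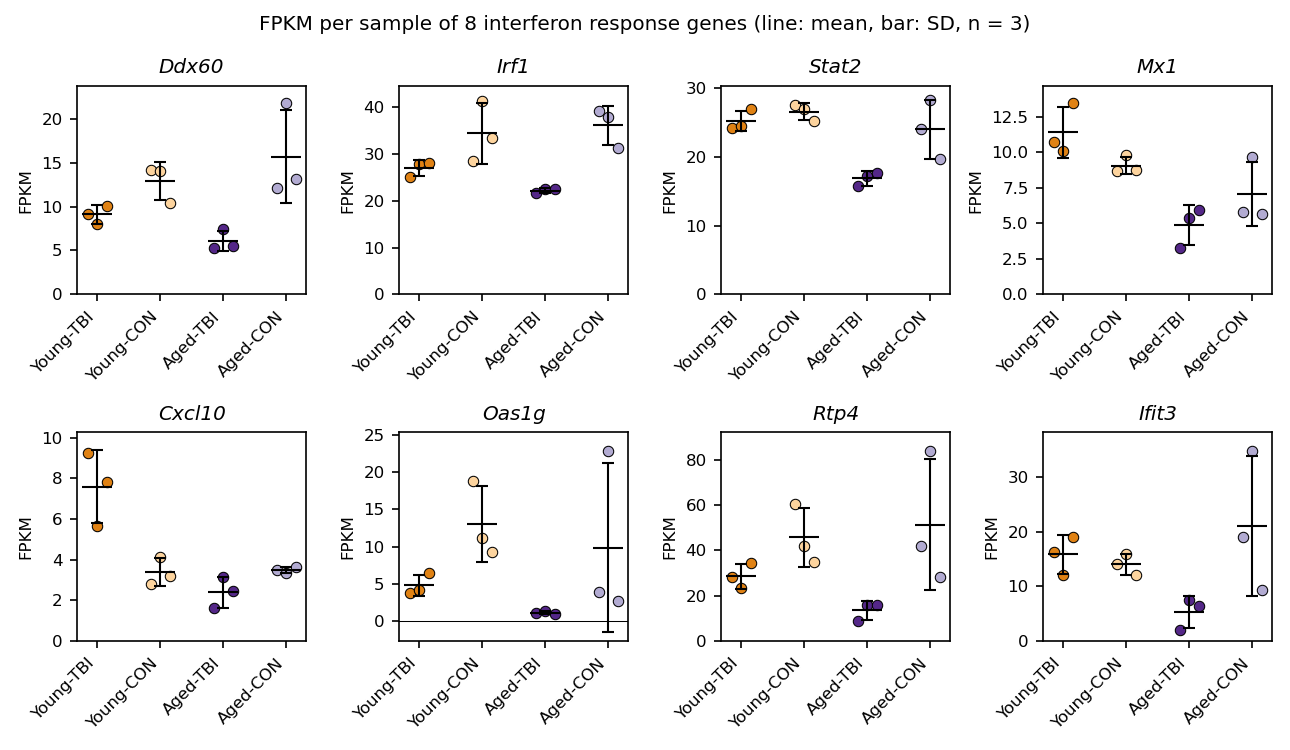
FPKM of 8 genes in each of the 12 samples (points), with the mean and SD of each group of 3 (line and bar, vertical axes in FPKM). The Aged-TBI points lie below all other groups for Ddx60, Irf1, Stat2, Oas1g, Rtp4 and Ifit3, while Cxcl10 is high in the Young-TBI samples, at 5.68 to 9.24 FPKM.

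In young mice 1 member rose with injury and none fell past the threshold, although 35 of the 45 log2 changes were negative. Cxcl10, the chemokine that draws activated T cells and natural killer cells, had 9.24, 5.68 and 7.84 FPKM in Young-TBI samples, against 2.80, 4.13 and 3.18 FPKM in Young-CON samples. The groups did not overlap, and the log2 change was 0.96 (SE 0.19, adjusted p = 0.014, limma). Without Young-TBI 1, Young-TBI 3 or Young-CON 3 the adjusted p of Cxcl10 was 0.0652, 0.0654 and 0.0665, with log2 changes of 0.82, 0.93 and 0.94. So 1 of 45 members rose and 0 fell, where 2% of all genes rose and 3.15% fell. The members' share was thus near that of all genes or below it. The count of fallen members was 1 without Young-CON 1 (Irf1) and 1 without Aged-CON 2 (Oas1g). At p under 0.05 before adjustment, 4 members were lower and 2 higher, against 11.4% and 8.72% of all genes. The groups did not overlap for 7 lower members, against 15% of all genes, and for 2 higher ones (Cxcl10 and Mx1), against 12.9%. The median log2 change was -0.18, against -0.02 over all genes. Single members were loosely bounded here too: Oas1g had a 95% interval from -2.41 to -0.07, and Ifi27l2a a log2 change of -0.69 with an interval from -1.56 to 0.17.

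The 4 members with p under 0.05 before adjustment and lower values in young injured marrow were Irf1, Ddx60, Samd9l and Oas1g. Oas1g had 3.82, 4.18 and 6.41 FPKM in Young-TBI samples, against 18.8, 11.1 and 9.22 FPKM in Young-CON samples, a log2 change of -1.24 (SE 0.53, adjusted p = 0.219). Its groups did not overlap at either age. Samd9l had 51.3, 52.1 and 59.5 FPKM with injury and 72.3, 73.3 and 62.2 FPKM in young controls. Mx1, a gene of the dynamin-like Mx family, went the other way, with 10.7, 10.1 and 13.5 FPKM in Young-TBI samples against 8.67, 9.79 and 8.77 FPKM in Young-CON samples, but its log2 change of 0.30 had an adjusted p of 0.468. Ifit2 had 11.3, 9.20 and 12.6 FPKM with injury and 8.84, 9.31 and 7.93 FPKM in young controls, with an unadjusted p of 0.0429 and an adjusted p of 0.23.

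**Figure D4:**
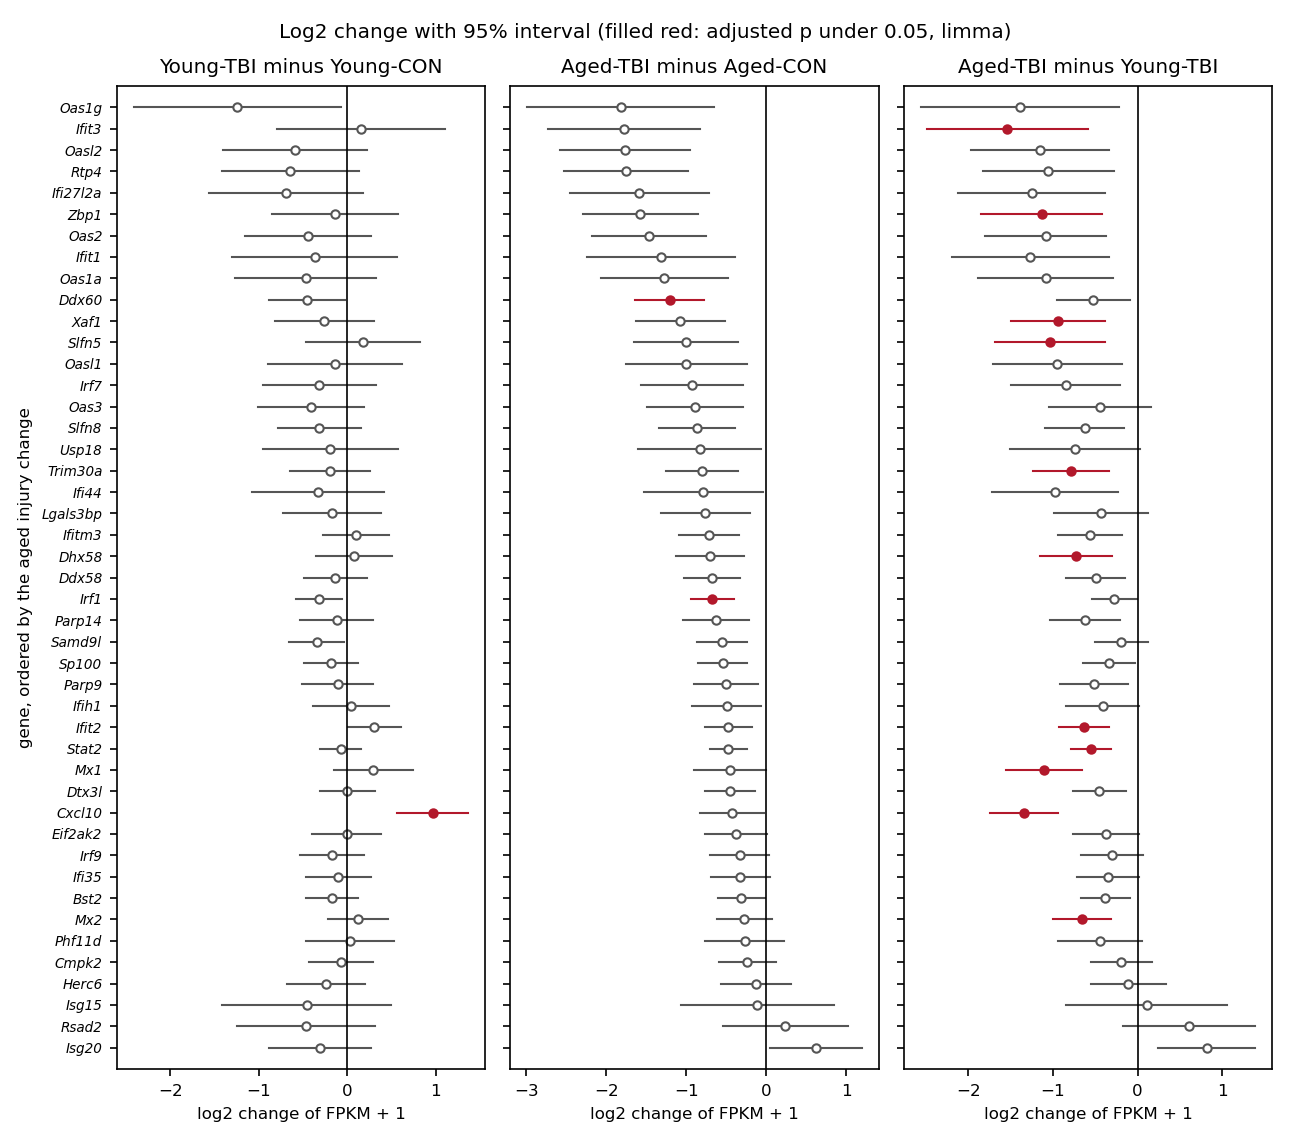
Log2 change of FPKM + 1 with its 95% interval for each of the 45 genes (rows) in 3 comparisons (panels), with filled red points for an adjusted p under 0.05 by limma. 1 gene passed in young mice, 2 in aged mice and 11 between Aged-TBI and Young-TBI marrow.

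Between injured mice of the 2 ages, aged marrow had lower levels of most members, and this comparison held the most calls. By limma 11 of 45 members were lower in Aged-TBI than in Young-TBI marrow and 0 were higher, where 6.93% of all genes were lower and 2.97% higher. Markers of several marrow cells were lower in the same comparison: 11 of 14 of B lineage (median log2 change -1.04), 5 of 14 of monocytes (-0.26) and 2 of 12 of marrow macrophages (-0.47) passed as lower, and 7 of 10 megakaryocyte and platelet markers were lower at p under 0.05 before adjustment (-0.91). Other lists did not go lower as a whole. Of 14 T and natural killer cell markers, 2 passed as higher and 2 as lower (median 0.23). Of 18 erythroid markers 5 passed as higher (0.88), and of 15 of mature neutrophils 1 did (0.01). Of 13 plasmacytoid dendritic cell markers 2 passed as lower, with a median of 0.02. The part of these cells in the member values was not tested. The members called were Cxcl10, Mx1, Stat2, Ifit2, Mx2, Trim30a, Dhx58, Xaf1, Ifit3, Slfn5 and Zbp1. At p under 0.05 before adjustment, 31 members were lower and 1 higher, against 19.4% and 9.12% of all genes. All 3 Aged-TBI samples lay below all 3 Young-TBI samples for 38 members, where 26.6% of all genes did so, and above them for 2 (Isg20 and Rsad2), where 13.4% did so. The median log2 change was -0.62, against -0.05 over all genes. This contrast depended on scaling over the whole table: of all genes called, 70.0% were lower as deposited, 54.3% after quantile normalization and 47.4% after median-of-ratios scaling, while 5 members were lower, all among the 11, under each of these other scalings. The count of members was 24 without Aged-CON 2, where 7% of all genes were lower, and 22 without Aged-CON 3, where 6.91% were. Aged controls matter here since the spread is shared by all groups. The count was 7 without Young-CON 3 and between 2 and 4 when any 1 injured sample of either age was left out: 2 without Young-TBI 3, 3 without Young-TBI 1 or Aged-TBI 1, and 4 without Young-TBI 2, Aged-TBI 2 or Aged-TBI 3. Over all genes fewer were lower there too: 5.51% without Young-CON 3 and between 2.17% and 4.38% without 1 injured sample.

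Cxcl10 had the smallest p of the members here, with 1.62, 3.13 and 2.44 FPKM in Aged-TBI samples, against 9.24, 5.68 and 7.84 FPKM in Young-TBI samples (log2 change -1.34, SE 0.19, adjusted p = 0.00234). It and Mx1 kept their calls without any 1 of the 12 samples. Mx1 had 3.29, 5.36 and 5.98 FPKM in Aged-TBI samples, against 10.7, 10.1 and 13.5 FPKM in Young-TBI samples (log2 change -1.10, SE 0.20, adjusted p = 0.00889). Mx2, annotated as a polymorphic pseudogene, had 0.888, 1.5 and 1.14 FPKM in Aged-TBI samples, against 2.39, 2.34 and 2.5 FPKM in Young-TBI samples, on a scale that understates changes near 1 FPKM. The difference of Mx1 was also present in direction between the uninjured groups, with 5.84, 9.71 and 5.66 FPKM in Aged-CON samples against 8.67, 9.79 and 8.77 FPKM in Young-CON samples, but the groups overlapped and the adjusted p was 0.378.

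Stat2 was lower in Aged-TBI marrow by -0.55 on the log2 scale (SE 0.11, adjusted p = 0.0109), with 15.7 to 17.7 FPKM against 24.2 to 27.0 FPKM in Young-TBI marrow. It lost its call without Young-TBI 3 (adjusted p = 0.0568) and kept it without any other 1 sample. Ifit2 had 6.20, 6.77 and 7.24 FPKM in Aged-TBI samples, against 11.3, 9.20 and 12.6 FPKM in Young-TBI samples (log2 change -0.63, adjusted p = 0.0165). Trim30a, a brake on inflammatory signalling in mice, had 24.0, 30.0 and 26.0 FPKM in Aged-TBI samples, against 40.6, 43.9 and 56.6 FPKM in Young-TBI samples (log2 change -0.79, adjusted p = 0.0346). Slfn5, of a family that restrains growth, had 9.17, 16.0 and 13.8 FPKM in Aged-TBI samples, against 28.5, 21.2 and 32.4 FPKM in Young-TBI samples (log2 change -1.03, adjusted p = 0.0488). None of these groups overlapped. Ifit3, Slfn5 and Zbp1, with adjusted p of 0.0462, 0.0488 and 0.0492, each passed in 3 of the 12 fits that leave out a sample, those without an aged control. Of the rest, Ifit2 passed in 8 of the 12, Mx2 in 7, Dhx58 and Trim30a in 6 and Xaf1 in 5, the calls being lost without injured samples or, for Xaf1, also without Young-CON 3.

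Between controls, age did not change any member past the threshold. By limma 0 of 45 were higher and 0 lower, where 0.79% of all genes were higher and 4.19% lower. Before adjustment 0 members had p under 0.05, where 14.1% of all genes were lower and 5.05% higher. The voom fit on recovered fragments, described with the processing, also called 0. The smallest adjusted p was 0.351 (Bst2), and the groups overlapped for every member, where 15.6% of all genes were lower and 4.78% higher with no overlap. The median log2 change was -0.08, against -0.05 over all genes. Bst2 had 98.1, 91.7 and 67.3 FPKM in Aged-CON samples, against 120, 92.2 and 91.6 FPKM in Young-CON samples. Single members were loosely bounded, since Ifit3 had a log2 change of 0.39 with a 95% interval from -0.56 to 1.34. Without Aged-CON 2, Oas1g passed as lower in aged controls, the only member to do so with any 1 sample left out.

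The difference between the injury changes at the 2 ages was tested as an interaction, and no member passed. By limma 0 of 45 were lower and 0 higher, where 0.178% of all genes were lower and 0.017% higher, and the voom fit also called 0. At p under 0.05 before adjustment, 16 members had a more negative change in aged mice and 1 (Isg20) a more positive one, against 10.5% and 9.57% of all genes. The median difference was -0.55, against 0.02 over all genes. The 5 members with the smallest p were Cxcl10, Ifit2, Ifitm3, Ifit3 and Zbp1, with differences of -1.39, -0.78, -0.81, -1.92 and -1.43 and adjusted p between 0.0591 and 0.146. Without Aged-CON 1, 4 members were lower and Isg20 higher past the threshold, where 8.79% of all genes were lower and 9.09% higher, so the members' share was near that of all genes or below it. Without Young-TBI 2 Cxcl10 was lower, where 0.518% of all genes were. The call that injury lowered Ddx60 and Irf1 in aged mice was therefore not shown to differ from young mice, with adjusted p of 0.183 and 0.271 for the difference.

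Isg20, Rsad2 and Isg15 were high in most of the samples with much Alas2, a gene of red cell precursors. Alas2, the first enzyme of haem synthesis in those cells, had 926, 915 and 940 FPKM in Aged-TBI samples, against 911, 458 and 476 FPKM in Aged-CON samples, and 622, 503 and 379 FPKM in Young-TBI samples, against 912, 397 and 787 FPKM in Young-CON samples. The 6 samples with the most Alas2 were also the 6 with the most Isg20, an exonuclease of RNA. Isg15 and Rsad2 (viperin), an enzyme that makes a chain-ending nucleotide, shared 5 of those 6, Herc6 shared 4, and the other 41 members shared 3 or fewer. The share of all genes with 5 or 6 such samples was not counted. Aged-TBI 1, with 926 FPKM of Alas2, was outside the 6 highest for both, at 110 FPKM of Isg15 and 122 FPKM of Rsad2. Isg20 had 146, 159 and 149 FPKM in Aged-TBI samples, against 140, 87.5 and 76.4 FPKM in Aged-CON samples. The groups did not overlap, though Aged-CON 1 lay close to the lowest injured sample (log2 change 0.62, SE 0.26, adjusted p = 0.179). Without Aged-CON 1 its change was 0.88 with an adjusted p of 0.0242 by limma, in a fit where 14.9% of all genes passed as higher. In young mice Isg20 had 91.2, 92.7 and 74.0 FPKM with injury, against 152, 68.6 and 114 FPKM in controls. Rsad2 had 122, 183 and 162 FPKM in Aged-TBI samples, against 197, 150 and 74.6 FPKM in Aged-CON samples, and these overlapped.

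Most erythroid markers were higher in aged injured marrow. In aged mice 16 of 18 such markers were higher with injury at p under 0.05 before adjustment, where 10.8% of all genes were. Of these markers 0 passed the adjusted threshold, and their median log2 change was 0.81. Between Aged-TBI and Young-TBI 18 of 18 were higher at that unadjusted level, where 9.12% of all genes were. Of the 18, 5 passed the adjusted threshold, where 2.97% of all genes did. The summed FPKM of the list was 4682 to 4962 in Aged-TBI and 2213 to 4201 in Aged-CON samples, and 2026 to 2888 in Young-TBI and 1816 to 3745 in Young-CON samples, and none of the 18 was at 0. The mean log2 level of the erythroid list was 7.37, 7.47 and 7.48 in the Aged-TBI samples. It was lower in every other sample, at most 7.23 (Aged-CON 1). As a covariate this level sets Aged-TBI apart from the other groups, which overlapped one another, Aged-CON running from 6.33 to 7.23. In comparisons with Aged-TBI, a fit with it therefore cannot separate injury or age from red cell content. With the mean level of the erythroid list as a covariate, the aged injury change was -0.13 for Isg20, -0.62 for Rsad2, -0.95 for Isg15 and -0.49 for Herc6, and all 45 members were negative. In that fit the median over the members was -0.68, 31 were lower at p under 0.05 before adjustment, and 0 passed the adjusted threshold. Between Aged-TBI and Young-TBI it was -0.04 for Isg20 and -0.36 for Rsad2, 44 of 45 members were negative, and 0 passed. The median over the members there was -0.66, against -0.62 without the covariate, 22 were lower at p under 0.05 before adjustment, and the share of all genes called lower was 0.705%, against 6.93% without it. Markers of other marrow cells moved with injury in aged mice as well. Of all genes 13.1% were lower at p under 0.05 before adjustment in this comparison, and 0.263% passed the adjusted threshold as lower. Of 15 mature neutrophil markers, 13 were lower at p under 0.05 before adjustment (median log2 change -0.42), and Il1b passed the adjusted threshold. At that unadjusted level 7 of 14 B lineage markers (median -0.38), 6 of 12 of marrow macrophages (-0.38), 4 of 14 of T and natural killer cells (-0.25), 1 of 14 of monocytes (-0.08), 1 of 13 of plasmacytoid dendritic cells (0.13) and 0 of 10 of megakaryocytes and platelets (-0.32) were lower. The summed FPKM of the neutrophil list was 47030 to 48900 in Aged-TBI and 45620 to 68170 in Aged-CON samples, that of the B lineage list 144 to 160 in Aged-TBI and 165 to 228 in Aged-CON samples, and that of the macrophage list 102 to 140 in Aged-TBI and 180 to 209 in Aged-CON samples. The plasmacytoid dendritic cell list kept 13 of 14 genes under the filter on low values, and the other 6 lists named here kept all. No listed marker with an entry was at 0 in every sample. What part these cells have in the member values was not tested.

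**Figure D5:**
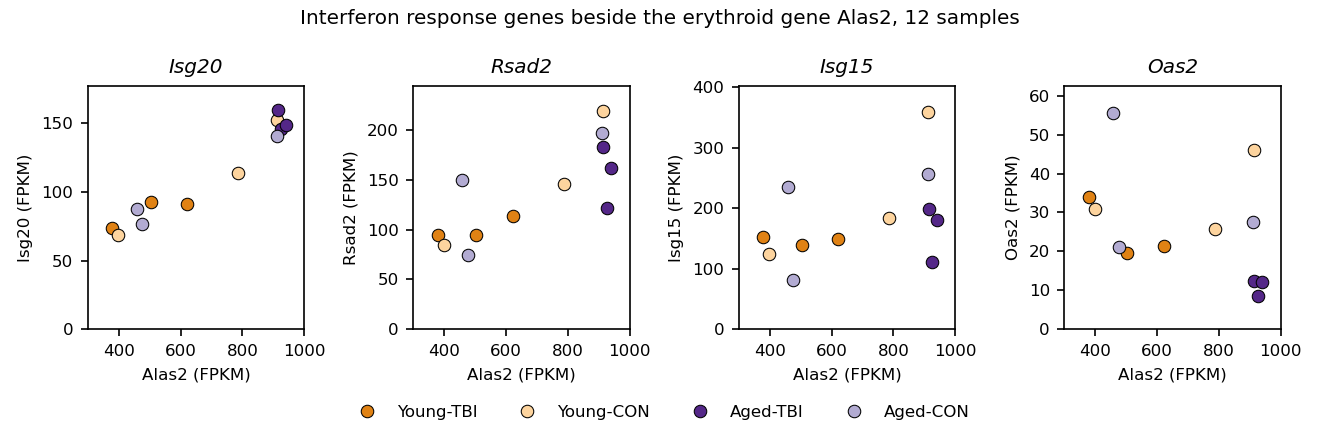
FPKM of Isg20, Rsad2, Isg15 and Oas2 (vertical axes, from 0) against FPKM of Alas2 (horizontal axes, not starting at 0) in the 12 samples, coloured by group. The 6 samples with the most Alas2 hold the 6 highest Isg20 values, while Oas2 is at 8.62 to 12.4 FPKM in the Aged-TBI samples, which have the most Alas2.

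The interferon genes themselves were listed at or near 0. Of 18 type I interferon genes listed, all had an entry and 15, Ifnb1 among them, were listed at 0 in every sample. The others reached 0.212 FPKM (Ifnab), 0.271 FPKM (Ifnk) and 0.0515 FPKM (Ifnz). The receptor subunits were detected in every sample, Ifnar1 with 15.2 to 16.0 FPKM in Aged-TBI samples and Ifnar2 with 36.7 to 37.2 FPKM. Of the 11 kept genes of the list of ligands, receptors and signal chain, 1 passed in any comparison: the kinase Tyk2 was lower in Aged-TBI than in Young-TBI marrow by -0.36 (adjusted p = 0.0175).

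Nucleic acid sensors that were not members, listed with their adaptors and other genes that act with them, held calls mainly for age. Of 27 kept, 9 were lower and 1 higher in Aged-TBI than in Young-TBI marrow, where 6.93% of all genes were lower and 2.97% higher, and 5 were lower in Aged-CON than in Young-CON marrow, where 4.19% of all genes were. The endosomal receptors Tlr7 and Tlr9, with log2 changes of -0.52 and -0.54, their chaperone Unc93b1 (-0.39) and Tmem173 (STING, -0.40) were lower in Aged-TBI than in Young-TBI marrow, as were Ticam2, Traf6, Irf5, Irf8 and Trim25, and Riok3 was higher. Unc93b1, Traf6, Irf3, Irf5 and Irf8 were lower in aged controls. None passed with injury in aged mice, and Ticam2 was higher with injury in young mice (0.37). Mavs, the adaptor of the RIG-I-like sensors, had a log2 change of 0.54 with injury in aged mice and an adjusted p of 0.096.

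Of 19 kept brakes and ISG15-conjugating genes, 2 (Socs1 and Trex1) were lower in Aged-TBI than in Young-TBI marrow, Irf2 was lower with injury in young mice and Samhd1 with injury in aged mice. The shares of all genes lower in these comparisons were 6.93%, 3.15% and 0.263%, in that order. Samhd1, which depletes the building blocks of DNA, had 125, 131 and 135 FPKM in Aged-TBI samples, against 185, 215 and 177 FPKM in Aged-CON samples (log2 change -0.55, SE 0.09, adjusted p = 0.0236). Of 71 other interferon-induced genes, 2 were lower with injury in aged mice, Psmb9 and Tap1, which make and carry peptides for antigen presentation. Tap1 had 32.8, 37.5 and 38.0 FPKM in Aged-TBI samples, against 79.0, 76.1 and 52.2 FPKM in Aged-CON samples (log2 change -0.90, SE 0.15, adjusted p = 0.0308). Of the 71, 53 were lower and 2 higher at p under 0.05 before adjustment in that comparison, with a median log2 change of -0.43, where 13.1% and 10.8% of all genes passed that level. Between Aged-TBI and Young-TBI, 18 of the 71 were lower and 2 higher (Nt5c3 among them), against 6.93% and 2.97% of all genes, the lower ones including Slfn9 (-0.77) and Pyhin1 (-1.04). In young mice, Ifitm1 (0.95), Ifi30, Slfn9 and Mlkl were higher with injury, and B2m (-0.55), Trim26 and Shisa5 were lower, against 2% and 3.15% of all genes. Between controls, Ifitm2 was higher in aged mice, and Ifi203, Mndal, Pyhin1, Trim26 and Apobec3 were lower, against 0.79% and 4.19% of all genes.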

How the data were processed

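Total RNA of whole marrow was sequenced after TRIzol extraction and SMARTER mRNA-seq library preparation, per the labels' protocols. The authors deposited one FPKM value per gene symbol and sample. Per the submitters' processing notes, GRCm38, mm10 and R 4.3.3 were used. Not given in the sources used here: the aligner, the counter and its strand setting. FPKM is relative, so a rise of abundant genes lowers the others.

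A gene was kept where 3 or more of the 12 samples reached 1 FPKM. On log2(FPKM + 1), limma 3.58.1 (R 4.3.3) estimated a mean for each group from all 12 samples jointly, with a variance trend. Adjusted p-values are Benjamini-Hochberg over all genes tested, two-sided. All log2 changes refer to FPKM + 1, which shrinks those of low genes. The 4 pairwise comparisons share groups.

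Low FPKM values fell on steps worth 1 fragment: 99.97% of tested genes gave whole fragments (tolerance 0.05), 12.28 to 15.85 M per sample and 16 to 12615 per member and sample. The voom fit used those fragments. Pairs of samples in a group differed by more than sampling error (chi-square per degree of freedom 4.47 to 47.9). The fit, the recovery and the motif search were tested on simulated data.

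Values per sample are given for members called in any comparison, the 5 with the smallest p in each, and the 3 of highest mean; Isg20, Rsad2, Ddx58 and others beyond these were named for their role or after their values were seen. The members and lists were chosen with earlier results of these data known. Listed genes with no entry were not analysed here. Some listed genes are not reported here.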

Additional observations from a re-analysis of the deposited data

Results flagged for a closer look

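Cxcl10 was set apart because its injured samples all lay on opposite sides of their controls at the 2 ages. All 3 Young-TBI samples (9.24, 5.68 and 7.84 FPKM) lay above all 3 Young-CON samples (2.80, 4.13 and 3.18 FPKM), whereas all 3 Aged-TBI samples (1.62, 3.13 and 2.44 FPKM) lay below all 3 Aged-CON samples (3.48, 3.33 and 3.66 FPKM). The aged change did not pass the threshold (log2 change -0.43, adjusted p = 0.188 by limma), and its highest injured and lowest control values were close. The injury change of Cxcl10 in aged mice minus that in young mice was -1.39 on the log2 scale (SE 0.26), with an adjusted p of 0.0591 by limma, so the difference itself did not pass the threshold. Over the other settings that adjusted p lay between 0.00513 and 0.269.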

How the results depend on the processing

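Of 25 planned and 3 added settings, none turned the direction of a called member. The voom fit and the 2 fits without pairs of controls (Aged-CON 1 with Young-CON 2, the ends of the erythroid order, and Aged-CON 2 with Aged-CON 3, the ends of the member order) were chosen after seeing the data. For members that fell with injury in aged mice (2 as reported), the count was 0 with no low-value filter, no variance trend, only the 2 groups compared, quantile normalization or the erythroid covariate, 1 with the replicate block, 21 without Aged-CON 1 and Young-CON 2, where 14% of all genes fell, and 29 with sample weights, where 14.7% of all genes fell; it ran from 0 to 21 with 1 sample left out. Without Aged-CON 2 and 3, which leaves 1 aged control whose spread is taken to be that of the other groups, 1 member fell (Zbp1, adjusted p = 0.0431 by limma), and neither Ddx60 nor Irf1 did. For members lower in Aged-TBI than Young-TBI (11), it was 0 with the erythroid covariate, 5 with no low-value filter, quantile normalization or median-of-ratios scaling, 6 with the replicate block, 7 with the robust variance model, 28 with sample weights, 29 without Aged-CON 2 and 3 and 32 with only the 2 groups compared, and from 2 to 24 with 1 sample left out. In the fits that gave 28, 29 and 32, the share of all genes called lower was between 10.5% and 15.1%, against 6.93% as reported, and with the erythroid covariate it was 0.705%. Members higher there were 2 with only the 2 groups compared and 1 with sample weights or either pair left out. In the interaction, sample weights gave 10 lower and 1 higher, where 12% and 13.3% of all genes passed, and the fit without Aged-CON 1 and Young-CON 2 gave 4 lower and 2 higher, where 12.3% and 13.6% did; 1 sample left out gave 0 to 4 lower and 0 to 1 higher. With injury in aged mice 1 member was higher with sample weights or without Aged-CON 1 and Young-CON 2, where 15.5% and 15.9% of all genes were. In young mice 1 was lower without that pair and 2 without Aged-CON 2 and 3. Between controls 1 was lower without Aged-CON 1 and Young-CON 2. Counts of members with 1 sample left out otherwise ran from 0 to 1. The causes were not tested.

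The replicate numbers of the labels were not taken as pairs: the correlation of same-numbered deviations ran from -0.12 to 0.29, and the block gave the counts above. Of all calls, the share that was lower was 84.1% between controls as deposited and 72.5% with median-of-ratios scaling, and 91.3% and 75.0% for the interaction. With 3 samples a group, the spread among aged controls limits what can be called.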
